A study of Mus musculus with 2 samples.

Results

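Receptors that take up dying cells, and the soluble proteins that bridge them to their prey, were followed through single cells of the mouse maxillary periodontium, which holds the upper teeth in place. The members were chosen by gene symbol: Mertk, Axl, Tyro3, Gas6, Pros1, Timd4, Stab1, Stab2, Lrp1 and Mfge8, which are 10 of the 32285 genes in the deposited matrices. The study deposited 2 droplet libraries, titled 377P and RP, prepared with version 3 of the 10x Genomics 3' kit, which tags each captured mRNA with a molecular barcode (UMI) so that copies are counted once. The series title concerns periodontitis that resolves under diabetes. Both libraries have the same organism and tissue in their labels, which leave both titles unexplained and name no strain, age, treatment or number of pooled animals. Neither library was taken as a control. Because each title has 1 library, every difference below lies between libraries, cannot be checked against replicates and carries no p-value.

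After filtering, 14515 cells of 377P and 16721 of RP remained, with medians of 5102 and 4301 UMIs per cell. The libraries shared 82 cell barcodes, 69 of them among kept cells. A level is the UMIs of a gene over all UMIs of a cell class in a library, written as CPM (the share scaled to 1000000 UMIs), with an exact 95% Poisson interval in parentheses where 1 is given. A class was compared between libraries if each held at least 50 of its cells. A gene with at least 20 UMIs in the class was called past the fold if its CPM differed at least 1.5-fold and the exact interval of the ratio left out 1. All intervals cover counting error only. Droplets also catch free RNA, so the higher of the levels in B or plasma cells and in T or NK cells is given as the lymphocyte level, and a level at or below it is read as background.

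Dying cells expose the lipid phosphatidylserine on their surface, and phagocytes read it directly or through bridging proteins. Mertk, Axl and Tyro3 (the TAM receptors) are receptor tyrosine kinases whose ligands Gas6 and protein S (Pros1) bind phosphatidylserine at their other end. Timd4 (TIM-4) and the stabilins Stab1 and Stab2 bind the lipid themselves, Lrp1 is a large endocytic receptor that recognises calreticulin on the prey, and Mfge8 links phosphatidylserine to integrins. Tissue-resident macrophages are the best known users of Mertk and TIM-4, and their clearance of spent neutrophils is regarded as a step in the resolution of inflammation.

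The promoters of 4 members are shown because the results turn on them. In resident macrophages Timd4 and Gas6 stood higher in RP while Stab1 did not, and Mfge8 was the member past the fold in the most classes. Each line gives the 250 bases before the RefSeq gene start on the gene's own strand, 5′ to 3′, in GRCm38.p6. Capitals mark the GC box GGGCGG, the ETS core GGAAGT and the MAF site TGCTGAC on either strand.
Timd4, chr11:46810549-46810798, plus strand: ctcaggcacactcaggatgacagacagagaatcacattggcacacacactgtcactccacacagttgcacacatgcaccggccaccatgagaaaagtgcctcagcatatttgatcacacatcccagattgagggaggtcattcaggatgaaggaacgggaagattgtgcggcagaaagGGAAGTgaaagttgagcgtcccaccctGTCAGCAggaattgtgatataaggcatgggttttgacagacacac
Gas6, chr8:13494536-13494785, minus strand: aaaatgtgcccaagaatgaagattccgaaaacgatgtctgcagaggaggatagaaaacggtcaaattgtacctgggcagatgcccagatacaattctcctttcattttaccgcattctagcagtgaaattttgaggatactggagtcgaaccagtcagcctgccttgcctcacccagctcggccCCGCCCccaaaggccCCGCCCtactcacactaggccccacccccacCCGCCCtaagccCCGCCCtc
Stab1, chr14:31168642-31168891, minus strand: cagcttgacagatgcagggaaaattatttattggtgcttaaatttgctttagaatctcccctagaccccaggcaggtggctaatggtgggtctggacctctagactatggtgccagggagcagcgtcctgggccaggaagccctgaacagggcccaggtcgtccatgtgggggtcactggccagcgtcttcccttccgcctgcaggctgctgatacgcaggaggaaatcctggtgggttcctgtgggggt
Mfge8, chr7:79149061-79149310, minus strand: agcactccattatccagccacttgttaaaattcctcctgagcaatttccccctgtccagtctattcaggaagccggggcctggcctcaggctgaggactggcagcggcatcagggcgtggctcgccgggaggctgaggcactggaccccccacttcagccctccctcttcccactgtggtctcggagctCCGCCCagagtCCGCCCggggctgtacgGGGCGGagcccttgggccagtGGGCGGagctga

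In the 300 bases of the RefSeq window, 250 before and 50 after the start, all 10 members had an entry. The GC box was found in 7 of them, all but Timd4, Stab1 and Stab2, and in 35.7% of the 32851 promoters of the same length. Timd4, Stab1 and Stab2 held 5, 7 and 4 CpG pairs and the other 7 members 6 (Axl) to 31 (Tyro3), where the median of all promoters was 7. The ETS core was found in Timd4 alone among the members, 72 to 67 bases before the start, and in 23.8% of all promoters. The MAF site was likewise found only in Timd4, on the minus strand as GTCAGCA at 45 to 39 bases before the start, and in 4.67% of all promoters. The PU.1 core GAGGAAG, which shares 5 letters with the ETS core, was found in Axl alone and in 13.6% of all promoters. CCAAT was found in Timd4 and Stab1, where it is left in lower case, and in 37.4%. TATAAA, the AP-1 site TGANTCA and the CArG box were found in 0 of the 10 members and in 13.6%, 7.81% and 1.63% of all promoters. A match describes letters in this window and not a bound site.

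Among the TAM receptors, Mertk was a gene of lymphatic vessels as well as of macrophages. Mertk (ENSMUSG00000014361, chromosome 2, 128698956 to 128802894, GRCm38) stood at 94.4 CPM (77.2 to 114) in the lymphatic endothelial cells of 377P and at 120 (102 to 141) in those of RP. In RP no other class reached this level within the intervals. Schwann cells (64.7 and 63.7 CPM), perivascular cells (62.2 and 58.0), blood endothelial cells (52.8 and 62.1) and monocytes or macrophages (40.8 and 46.3) followed, and neighbours in the order of these classes overlapped in both libraries. In RP neuronal cells, at 56.1, lay among them. All 7 neuronal markers were detected in that cluster over both libraries together (110 and 93 cells), yet its first leading gene was Amelx, an enamel gene. Over all kept cells of 377P and RP, Snap25 had 384 and 95 UMIs and Omp 882 and 402. Of the listed neuronal markers only Stmn2, with 1821 and 1878, was not lower in RP. The make-up of the cluster within each library was not tested. Which of its cells held Mertk was not tested. Fibroblasts stood lower, at 17.6 and 18.5 CPM, and dendritic cells lower still, at 3.96 and 5.76. The lymphocyte level was 1.87 and 4.63, so dendritic cells, whose intervals covered it, showed no Mertk above background.

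Axl had another distribution, led by fibroblasts. Axl (ENSMUSG00000002602, chromosome 7, 25757273 to 25788705) reached 214 CPM (207.5 to 220.2) in the fibroblasts of 377P and 230 (223 to 237) in those of RP, above every other class in both libraries. Fibroblasts made up 17.9% and 23.1% of the kept cells and held 67.9% and 69.1% of the Axl UMIs. Perivascular cells came next with 148 and 141 CPM, then Schwann cells with 74.5 and 114. Monocytes or macrophages stood at 40.3 and 55.3 CPM and dendritic cells at 39.6 and 46.1, so these 2 phagocyte classes did not differ beyond counting error. In both kinds of endothelium Axl lay between 7.26 and 10.7 CPM, at or below the lymphocyte level of 11.9 and 15.9. Endothelial cells thus carried Mertk without Axl above background, whereas fibroblasts were the class with the most Axl and ranked below macrophages for Mertk.

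Tyro3 was scarce everywhere. Tyro3 (ENSMUSG00000027298, chromosome 2, 119797733 to 119818104), the TAM receptor best known from nervous tissue, had 339 UMIs in 377P and 506 in RP, of which the epithelial class held 72.6% and 50.8%. Its epithelial level was 4.31 CPM (3.79 to 4.89) and 6.42 (5.66 to 7.25), above the lymphocyte level of 0.984 and 1.67. The highest class was Schwann cells in 377P with 3 UMIs and neuronal cells in RP with 10 UMIs. Those 10 lay in 3 cells, 1 of which held 5. Both classes overlapped the epithelial class. Monocytes or macrophages held 1 and 3 UMIs, and dendritic and lymphatic endothelial cells 0 in both libraries.

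Of the direct receptors of phosphatidylserine, Timd4 was highest in myeloid classes and both stabilins in the lymphatic endothelial class. Timd4 (ENSMUSG00000055546, chromosome 11, 46810800 to 46844332) had 8 UMIs in all kept cells of 377P and 115 in those of RP. In RP it stood at 24.5 CPM (14.3 to 39.2) in dendritic cells and 21.4 (16.4 to 27.5) in monocytes or macrophages, and these overlapped. In 377P the same classes held 3 and 2 UMIs. No other named class exceeded 0.458 CPM in either library, and lymphocytes held 0 UMIs in both.

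Stab1 (ENSMUSG00000042286, chromosome 14, 31139013 to 31168641), a scavenger receptor of sinusoidal and lymphatic endothelium and of macrophages, gave the same order in both libraries. Lymphatic endothelial cells stood at 330 CPM (297 to 365) in 377P and 364 (332 to 398) in RP. Monocytes or macrophages followed at 153 (135 to 171) and 132 (119 to 146), then blood endothelial cells at 84.1 (74.1 to 95.2) and 77.7 (70.8 to 85.1). None of these 3 classes overlapped the next in its library. Lymphatic endothelial cells were 1.01% and 1.92% of the kept cells and held 25.6% and 24.2% of the Stab1 UMIs. Stab2 (ENSMUSG00000035459, chromosome 10, 86841198 to 87008025), its paralog, was again highest in lymphatic endothelial cells, at 12.7 CPM (6.95 to 21.3) with 14 UMIs and 17.5 (11.1 to 26.3) with 23 UMIs. Blood endothelial cells held 3 Stab2 UMIs in each library, so the blood vessels had Stab1 without Stab2 above the lymphocyte level of 1.42 and 1.67 CPM. Fibroblasts stood at 3.76 CPM in both libraries for Stab2. As the larger class they held 43.5% and 43.6% of its UMIs, against 7.91% and 12.7% in lymphatic endothelial cells.

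Lrp1 (ENSMUSG00000040249, chromosome 10, 127538161 to 127621148) was foremost a fibroblast gene, at 431 CPM (422 to 440) in 377P and 387 (379 to 396) in RP. As with Axl, fibroblasts held most of its UMIs, 69.6% and 69.4%. Monocytes or macrophages stood at 247 (225 to 271) and 183 (168 to 199), above perivascular cells at 103 and 77.3, Schwann cells at 80.9 and 67.4 and dendritic cells at 49.6 and 82.0. Both kinds of endothelium lay between 12.4 and 19.0 CPM, near the lymphocyte level of 16.9 and 18.0. In RP, chondrocytes (62 cells, 214 CPM) and osteoblast lineage cells (59 cells, 187 CPM) overlapped the macrophage level.

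The bridging proteins came mainly from stromal, vascular and epithelial cells. Among the classes, Gas6 (ENSMUSG00000031451, chromosome 8, 13465374 to 13494490) was highest in fibroblasts, at 192 CPM (186 to 199) in 377P and 160 (155 to 165) in RP. Lymphatic endothelial cells stood at 126 and 146, and in RP they overlapped the fibroblasts. Blood endothelial cells stood at 94.5 and 137, epithelial cells at 78.8 and 71.7, and monocytes or macrophages at 68.3 and 121. Within the last class, the resident macrophages described below stood at 172 and 346, the latter above the fibroblasts of RP. Epithelial cells and fibroblasts held 45.4% and 39.9% of the Gas6 UMIs of 377P and 31.9% and 37.4% of those of RP. Dendritic cells, at 11.9 and 13 CPM, did not exceed the lymphocyte level of 14.3 and 13.2.

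Pros1 (ENSMUSG00000022912, chromosome 16, 62854307 to 62929346), which encodes protein S, the plasma anticoagulant, was led by Schwann cells at 272 and 264 CPM and lymphatic endothelial cells at 265 and 273. These 2 classes overlapped in both libraries and stood above all others. Blood endothelial cells followed at 161 and 172, fibroblasts at 135 and 114 and perivascular cells at 119 and 104. Monocytes or macrophages stood at 38.7 and 57.0 CPM, above the lymphocyte level of 9.29 and 13.2. Mfge8 (ENSMUSG00000030605, chromosome 7, 79133768 to 79149060) was highest in perivascular cells, at 528 CPM (503 to 555) and 618 (596 to 641), and in gland or respiratory epithelial cells, at 456 (433 to 481) and 595 (586 to 605). Gland cells were 0.882% of 377P and 8.53% of RP and held 14.3% and 54.7% of the Mfge8 UMIs. Monocytes or macrophages, at 31.3 and 59.8 CPM, lay near the lymphocyte level of 24.7 and 67.3, so Mfge8 in this class was not above background.

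**Figure D1:**
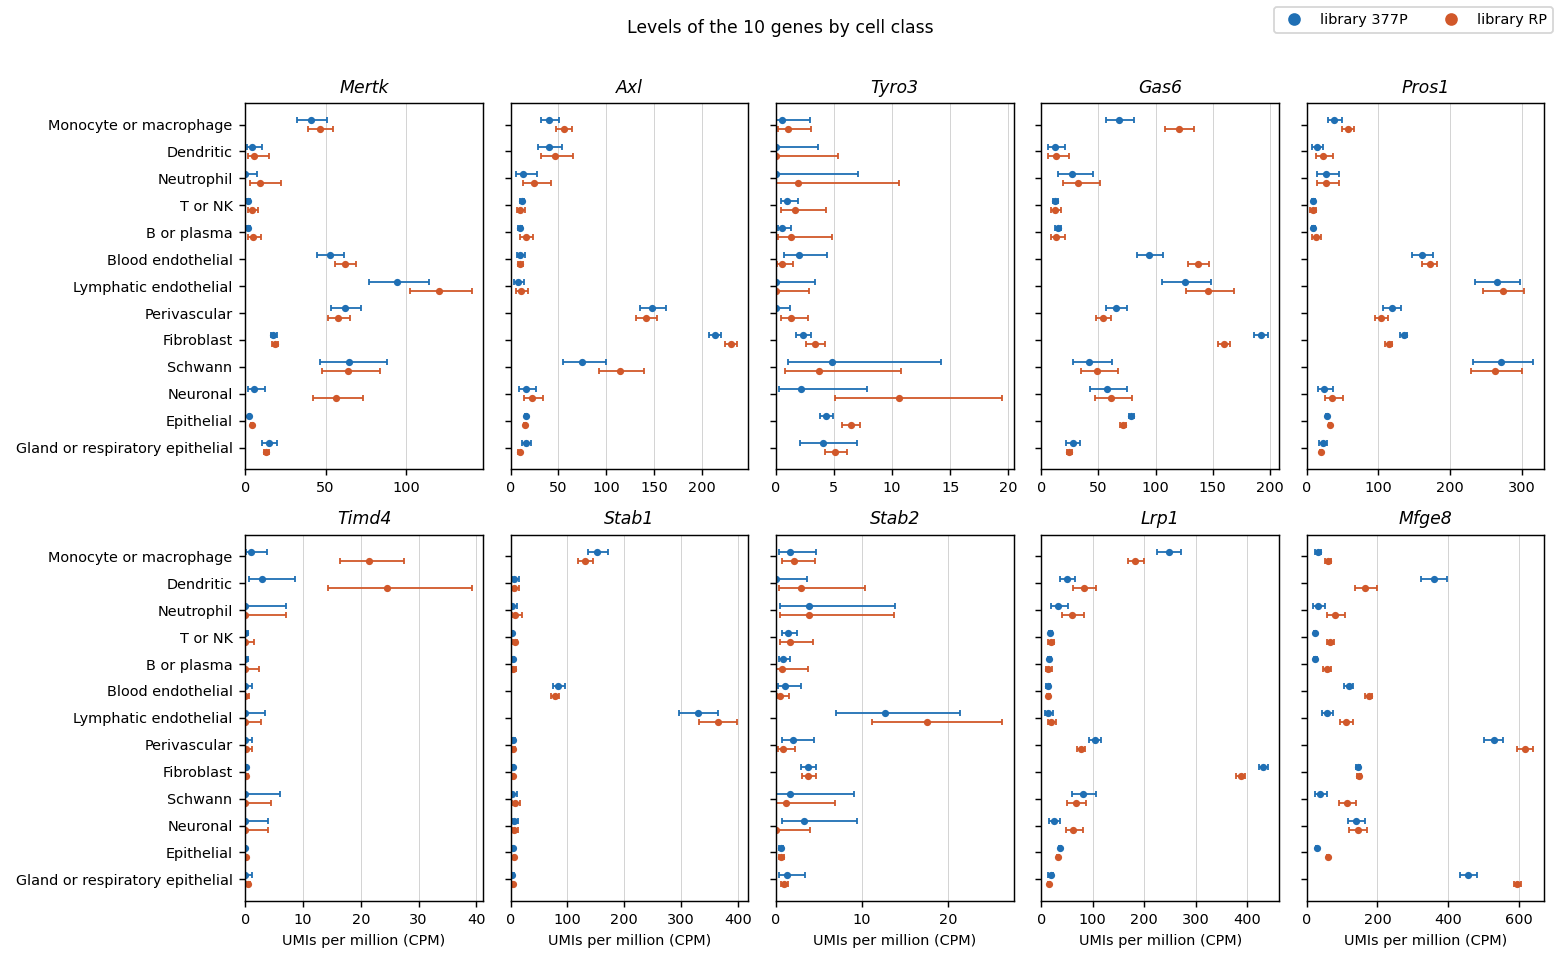
Level of each of the 10 genes in CPM (linear horizontal axes, each with its own range) in the 13 cell classes with at least 50 cells in both libraries, with points for library 377P and library RP and bars for the exact 95% Poisson interval. Mertk, Stab1 and Pros1 peak in lymphatic endothelial or Schwann cells, Axl and Lrp1 in fibroblasts, Mfge8 in perivascular and gland cells, and Timd4 stands at 24.5 and 21.4 CPM in the 2 phagocyte classes of RP and at 2.97 or below elsewhere.

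Within the phagocytes the members were compared in sub-clusters, since different sub-clusters made up the class in the 2 libraries. In 377P the monocyte or macrophage class of 365 cells held 197 cells led by Arg1, odorant-binding protein genes and Fn1, 89 monocytes and 52 resident macrophages. In RP its 620 cells held 217 Spp1 macrophages, 214 resident macrophages and 155 monocytes of another sub-cluster. The Spp1 name rests on 3 of its 8 listed markers, and Mucl1 and Ccl24 stood ahead of Spp1 among the leading genes. Resident macrophages formed a single sub-cluster in both libraries. All 10 markers of the list were detected there, and C1qa, a complement subunit made by macrophages, stood at 2883 and 3387 CPM against 6.89 and 33.8 in T or NK cells.

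Resident macrophages were the subset with the most Mertk, Stab1, Gas6 and Pros1. Mertk stood at 142 CPM (102 to 192) in 377P and 117 (95 to 143) in RP. The Arg1-led cells of 377P stood at 22.5, the Spp1 macrophages of RP at 26.5, and monocytes held 1 and 4 UMIs. None of these subsets overlapped the resident cells of its own library. Stab1 stood at 304 CPM (245 to 374) and 299 (263 to 338) in resident macrophages, 145 in the Arg1-led cells, 78.7 in the Spp1 macrophages and 33.0 and 35.3 in monocytes. The intervals of Stab1 in resident macrophages overlapped those of lymphatic endothelium in both libraries. Pros1 stood at 132 and 137 CPM in resident macrophages and at 24.8 or less in the Arg1-led and Spp1 cells.

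Axl and Lrp1 did not follow Mertk. Axl stood at 37.2 CPM (18.6 to 66.5) and 34.6 (23.2 to 49.7) in resident macrophages and at 69.9 (55.3 to 87.1) in the Spp1 macrophages of RP, where the intervals did not overlap. The Arg1-led cells of 377P stood at 28.1 CPM (18.2 to 41.5) and overlapped the resident cells. Lrp1 was lower in resident macrophages, at 176 (131 to 230) and 172 (145 to 202), than in the Spp1 macrophages of RP at 233 (206 to 263) and the Arg1-led cells of 377P at 310 (275 to 349). Monocytes already stood at 196 and 144 CPM for Lrp1, where Mertk, Gas6 and Timd4 were near their lymphocyte levels. In a further sub-cluster led by Mmp13 and Mmp12, of 30 and 33 cells, Axl reached 145 and 198 CPM. Single resident cells could hold both Mertk and Axl. Of the 214 in RP, 7 held UMIs of both, 54 of Mertk only and 14 of Axl only, and in the 52 of 377P the numbers were 5, 12 and 4.

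**Figure D2:**
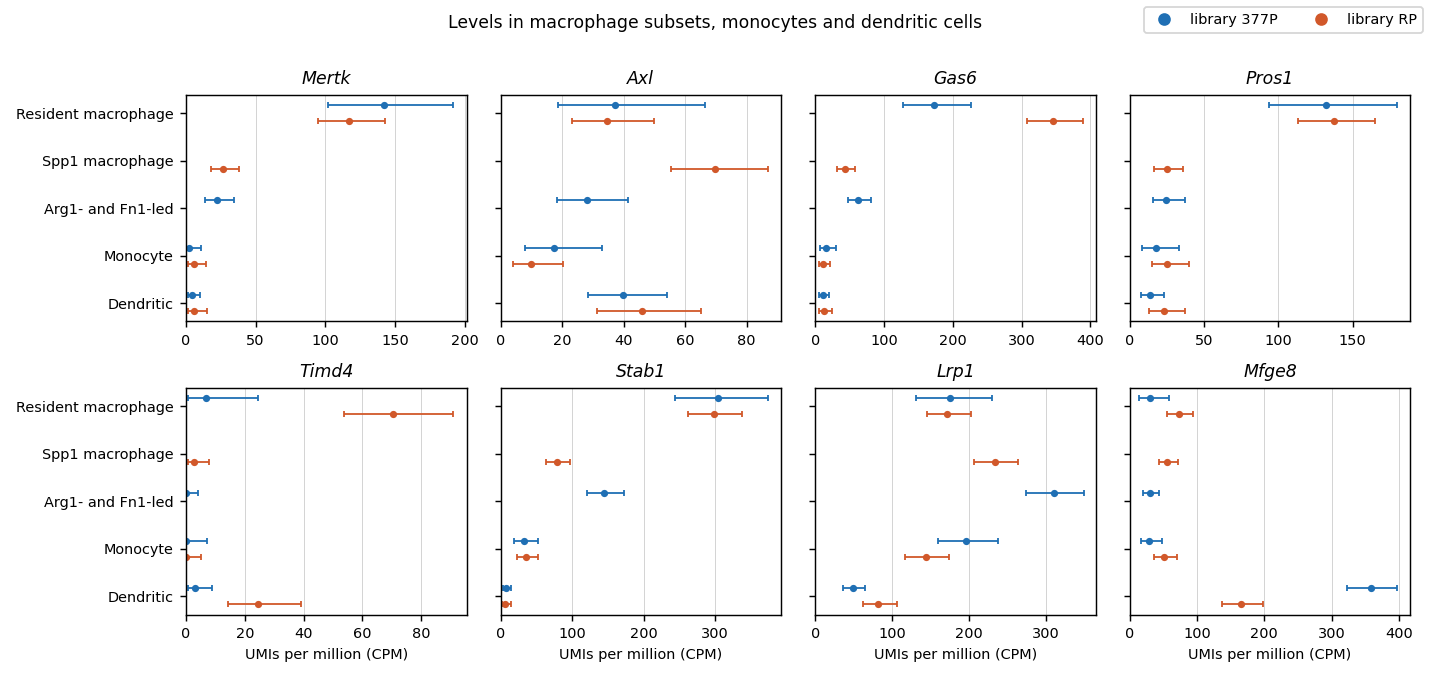
Level of 8 members in CPM (linear axes, each with its own range) in resident macrophages, Spp1 macrophages, Arg1- and Fn1-led cells, monocytes and dendritic cells, for libraries in which the subset held at least 50 cells. Points are the 2 libraries and bars the exact 95% Poisson intervals. Mertk, Stab1, Pros1 and Gas6 are highest in resident macrophages, and the Timd4 and Gas6 points of the 2 libraries lie apart there.

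Between the libraries, the receptor Timd4 and the bridging protein Gas6 stood higher in the resident macrophages of RP. The other receptors tested in these cells, and Pros1, were not past the fold. Mfge8 was past it and is given below beside its lymphocyte level. Timd4 rested on 2 UMIs in 2 of 52 cells of 377P and 59 UMIs in 33 of 214 cells of RP. Its level was 6.76 CPM (0.819 to 24.4) and 70.5 (53.6 to 90.9), a ratio of 10.4 (2.76 to 88.1). Gas6 rested on 51 and 290 UMIs and stood at 172 CPM (128 to 227) and 346 (308 to 389), a ratio of 2.01 (1.49 to 2.76). For both genes the intervals of the libraries did not overlap. In the same cells the ratio of RP over 377P was 0.824 for Mertk (0.569 to 1.21), 0.931 for Axl (0.452 to 2.07), 1.04 for Pros1 (0.719 to 1.54), 0.981 for Stab1 (0.768 to 1.26) and 0.978 for Lrp1 (0.708 to 1.37). Those intervals bound the difference and do not show that the levels were equal. Stab2 and Tyro3 had at most 2 UMIs in a library.

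In resident macrophages 3 of the 8 members with at least 20 UMIs were past the fold, all higher in RP, beside 4.88% of all 6677 genes so tested in that direction. The third was Mfge8, at 30.4 and 72.8 CPM with 9 and 61 UMIs, a ratio of 2.39 (1.18 to 5.49). Its lymphocyte level moved alike, from 24.7 to 67.3. The median log2 ratio of the 8 members was 0.02 and that of all tested genes -0.01. Gland or respiratory epithelial markers also moved with the libraries in these cells: 9 of 11 had a UMI and summed to 2315 CPM in 377P, and all 11 did and summed to 15013 in RP. The gland class itself stood at 0.458 CPM for Timd4 and 24.6 CPM for Gas6 in RP, below the resident macrophages of that library. Fibroblast markers summed to 771 and 745 CPM and B or plasma markers to 541 and 276. The part of these cells in the result was not tested.

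The difference in Timd4 kept its direction under the 5 other settings that changed the resident macrophages or their scaling and gave a ratio, with log2 ratios of 3.38 to 3.73. That of Gas6 shrank when each library was clustered on its own, to a log2 ratio of 0.50 against 1.01, and to 0.57 when cells were gated one by one on markers. Both are under 1.5-fold. In cells thinned to 2000 UMIs, which puts all at 1 depth, Gas6 was found in 33.3% (20.4 to 48.4) of 48 resident macrophages of 377P and 49.4% (41.8 to 57.1) of 176 of RP. Timd4 was found in 0 of 48 (0 to 7.4%) and 8.52% (4.85 to 13.7), and unthinned in 2 of 52 and 33 of 214. The intervals of these thinned shares overlapped for both genes.

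Timd4 and Gas6 also met in single cells. Among the 214 resident macrophages of RP, 28 held UMIs of both, 5 of Timd4 only, 109 of Gas6 only and 72 of neither. The 33 cells with Timd4 stood at 492 CPM for Gas6 (394 to 607) and the 181 without at 307 (266 to 353). Folr2, the folate receptor of resident macrophages, stood at 668 CPM (553 to 800) in the cells with Timd4 and 366 (322 to 415) in those without, and Lyve1, a hyaluronan receptor, at 458 (364 to 570) and 315 (273 to 361). Stab1 stood at 272 (200 to 360) and 306 (265 to 351), Cd163, a hemoglobin scavenger receptor, at 390 (304 to 494) and 430 (381 to 483), and Mertk at 130 (82.5 to 195) and 114 (89.3 to 142). The cells with Timd4 were deeper, with a median of 5137 UMIs against 3461. Levels are shares of UMIs, yet deeper cells are more likely to show a rare transcript, and the part of depth was not tested.

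Over the whole monocyte or macrophage class, 3 of 8 members tested were past the fold, all higher in RP, where 5.49% of all genes were. Timd4 stood at 1.06 and 21.4 CPM, a ratio of 20.2 (5.37 to 171) that rests on 2 and 62 UMIs. Gas6 gave 1.76 (1.44 to 2.18) and Mfge8 1.91 (1.42 to 2.62), the latter beside the like move of its lymphocyte level. Mertk (1.14, 0.851 to 1.52), Axl (1.37, 1.04 to 1.83), Pros1 (1.47, 1.11 to 1.97) and Stab1 (0.863, 0.739 to 1.01) were not past it. Lrp1 was 1.35-fold higher in 377P (1.19 to 1.54), also not past it. These values mix the sub-clusters named above. Monocytes, tested on their own, had 0 of 4 members past the fold in either direction, beside 8.96% of all genes.

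**Figure D3:**
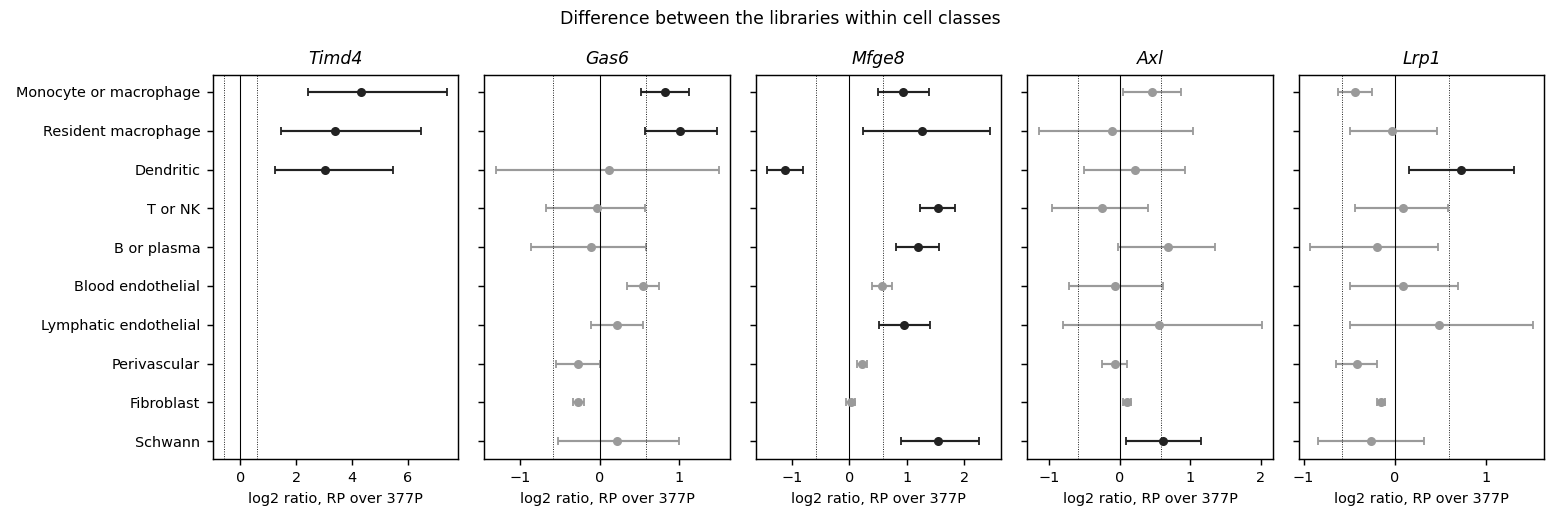
Log2 ratio of the level in RP over that in 377P for 5 members in 10 classes or subsets, with exact 95% intervals. Black points are past 1.5-fold (dotted lines) with an interval that leaves out 0 on this log2 scale, grey points are not, and pairs with under 20 UMIs are left out. Timd4 and Gas6 stand to the right in macrophages, Mfge8 to the right in many classes and to the left in dendritic cells.

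Dendritic cells carried Timd4 and Mfge8, and both differed between the libraries. Of the 6 members tested in this class, 2 were past the fold with RP higher (5.52% of all genes) and 1 with 377P higher (5.89%). Timd4 rested on 3 UMIs in 3 of 111 cells of 377P and 17 UMIs in 8 of 121 cells of RP, a ratio of 8.23 (2.38 to 43.8). After thinning, Timd4 was found in 0 of 98 cells of the dendritic sub-clusters of 377P and in 4 of 112 of RP. The class log2 ratio was then 0.28 against 3.04, with 377P set to a floor of 3 counts. It is thus not a measured ratio. Lrp1 stood at 49.6 CPM (36.8 to 65.3) and 82.0 (62.1 to 106), a ratio of 1.66 (1.11 to 2.47), and after thinning its log2 ratio was -0.07 against 0.73. Most dendritic cells of 377P (102) belonged to a sub-cluster with Ccl22 and Ccr7 among its leading genes, of which Ccr7 marks migrating dendritic cells, and most of RP (111) to one with Ccl17 and Cd209a among its leading genes. Of the 13 dendritic markers, 9 were raised in the former sub-cluster and 4 in the latter. The dendritic cells compared were thus of different sub-clusters.

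Mfge8 in dendritic cells came from very few cells. Its class level was 359 CPM (323 to 398) in 377P, with 362 UMIs, and 166 (137 to 199) in RP, with 115 UMIs, which is 2.17-fold higher in 377P (1.75 to 2.70). In 377P 6 cells held 127, 72, 39, 35, 32 and 19 UMIs, and the next held 4. In RP 3 cells held 27, 26 and 21 UMIs, and the next held 2. Cd207 encodes langerin of Langerhans cells and some dermal dendritic cells. Dendritic cells with at least 3 UMIs of Cd207 numbered 6 in 377P and held 324 of the 362 UMIs (4749 CPM). In RP they numbered 4 and held 48 of the 115 (2556 CPM). Those of RP with 3 and 4 UMIs of Cd207 held only 1 and 0 Mfge8 UMIs. The highest RP cell held 2 UMIs of Cd207 and fell just below that limit, which was chosen after the cells had been seen. In the monocyte or macrophage class 4 cells of 377P and 7 of RP reached the limit. They held 1 and 4 Mfge8 UMIs (44.6 and 68.8 CPM), so Cd207 alone did not mark cells rich in Mfge8.

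Without the Cd207 cells the direction turned, but the size of the turn rested on 1 cell. The other 105 dendritic cells of 377P stood at 40.4 CPM (28.6 to 55.4) and the other 117 of RP at 99.1 (76.8 to 126), a log2 ratio of 1.30 in place of -1.12. That highest RP cell, with 2 UMIs of Cd207, held 27 of the 67 Mfge8 UMIs of the 117. With the limit at 2 UMIs of Cd207, 104 cells of 377P stood at 40.7 CPM (28.8 to 55.9) and 116 of RP at 60.3 (43.1 to 82.1), a ratio of 1.48 (0.925 to 2.37), which is not past the fold. Those levels lie nearer to the lymphocyte level of 24.7 and 67.3. The Mfge8 level of dendritic cells thus turned on 6 cells of 377P and 3 of RP. Timd4 had 0 UMIs in the Cd207 cells of both libraries, but their few UMIs allow up to 54.1 and 196 CPM, so its level there could not be told.

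**Figure D4:**
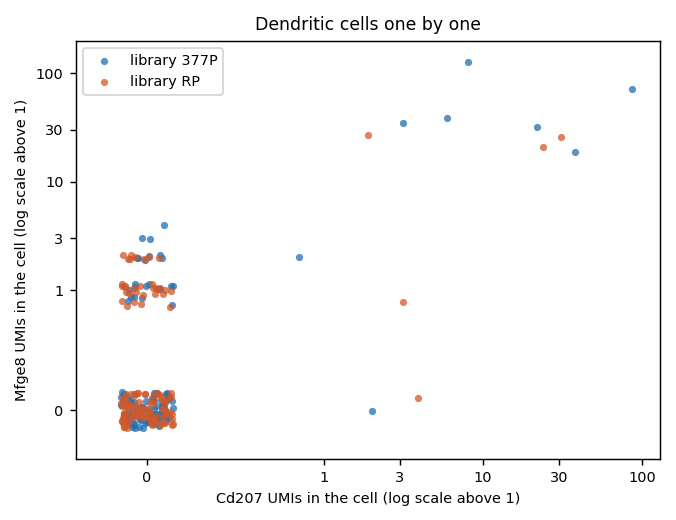
UMIs of Mfge8 (vertical axis) against UMIs of Cd207 (horizontal axis) in each of the 111 dendritic cells of 377P and 121 of RP, on axes that are linear to 1 and logarithmic above, with small random shifts to separate equal counts. The 6 cells of 377P and 3 of RP with at least 19 Mfge8 UMIs all carry Cd207, and the rest lie at 4 or below.

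Mertk and Stab1 each kept their order of arterial and venous cells in both libraries. Arterial endothelial cells (91 and 223 cells) stood at 122 CPM (96.2 to 151) and 120 (100 to 141) for Mertk, above venous cells (57 and 429 cells) at 40.8 (22.8 to 67.3) and 51.4 (42.8 to 61.3). The arterial Mertk level overlapped that of lymphatic endothelium in both libraries. Capillary cells of RP (302 cells) stood at 68.9 (54.2 to 86.4), below the arterial cells and overlapping the venous ones, and 377P held too few of them to compare. Of these 302 cells, 114 formed a sub-cluster absent from 377P, with a median of 1597 UMIs per cell. In it 6 gland or respiratory epithelial markers were raised. For Stab1 the venous cells stood above the arterial ones, the reverse of Mertk. The capillary cells of RP stood below the venous ones and overlapped the arterial ones. Venous cells stood at 174 (134 to 222) and 103 (90.8 to 117), arterial cells at 76.9 (57.1 to 101) and 56.3 (43.3 to 71.9), and the capillary cells of RP at 34.9 (24.7 to 47.9). Stab2 had 0 UMIs in arterial cells of both libraries and at most 2 UMIs in the venous or capillary cells of a library.

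In venous cells 2 of 7 members tested were past the fold beside 10% of all genes in either direction. Stab1 was 1.69-fold higher in 377P (1.26 to 2.23) and Gas6 1.51-fold higher in RP (1.10 to 2.12), at 117 and 177 CPM. The venous cells of RP came from 2 sub-clusters, and 377P had 50 of its 57 in 1 of them. Within that sub-cluster Gas6 stood at 119 and 256 CPM, a ratio of 2.16 (1.54 to 3.10), while Stab1, at 179 and 153, was no longer past the fold (1.18-fold higher in 377P, 0.851 to 1.61). In arterial cells 0 of 5 members were past the fold (8.49% of all genes). Blood endothelium as a class gave 0 of 7 (10.4%), with Gas6 at 1.45 (1.27 to 1.67) and Mfge8 at 1.48 (1.31 to 1.67) just short of it. That class mixes unlike sub-clusters, such as a Glycam1-led one holding 196 and 15 cells in 377P and RP, and a Kcnc2-led one holding 7 and 360. Lymphatic endothelium gave 1 of 8 (10.7%), Mfge8 at 57.2 and 110 CPM, a ratio of 1.93 (1.43 to 2.64). In RP 98 of the 321 lymphatic cells formed a sub-cluster with the gland genes Tff2 and Muc5b among its leading genes. In the sub-cluster that both libraries shared (142 and 217 cells) the Mfge8 ratio was 1.85 (1.35 to 2.56). Shares of all genes past the fold were not computed within single sub-clusters.

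**Figure D5:**
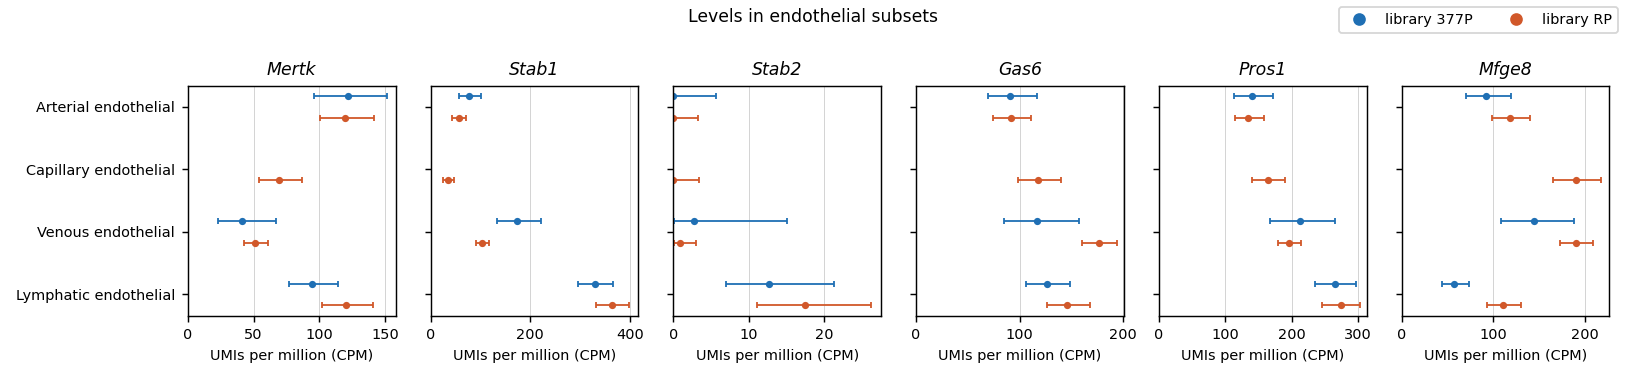
Level of 6 members in CPM (linear axes, each with its own range) in arterial, capillary, venous and lymphatic endothelial cells, with points for the 2 libraries and bars for exact 95% Poisson intervals. Capillary cells are shown for RP alone. Mertk is high in arterial and lymphatic cells, Stab1 in lymphatic and then venous cells, and Stab2 in lymphatic cells.

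Stromal cells showed 0 members past the fold between the libraries as classes: 0 of 9 tested in fibroblasts, beside 8.83% of all genes, and 0 of 7 in perivascular cells, beside 8.38%. Axl in fibroblasts gave a ratio of 1.08 (1.03 to 1.12), and Gas6 was 1.2-fold (1.15 to 1.26), Pros1 1.19-fold (1.12 to 1.25) and Lrp1 1.11-fold (1.08 to 1.15) higher in 377P. The fibroblasts came largely from a cluster led by Mmp3 and Ptx3 in 377P (1899 cells) and one with Has1 and Pi16 among its leading genes in RP (2914 cells). Axl stood at 240 CPM (232 to 248) in the former and 264 (256 to 272) in the latter. A cluster with Col11a1 and Tnn among its leading genes, of 400 and 531 cells, had more Gas6, at 310 (294 to 328) and 265 (251 to 281), and less Axl, at 154 and 156. Within it Pros1 was 1.59-fold higher in 377P (1.40 to 1.79), at 148 and 93.6 CPM. No share of all genes past the fold was computed for this single cluster.

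Perivascular cells split in their use of the members. Those of the cluster led by Myh11, a smooth muscle myosin, stood at 683 and 789 CPM for Mfge8 and 86.6 and 73.5 for Mertk. Those led by Rgs5, a pericyte gene, stood at 309 and 285 for Mfge8 and 27.5 and 27.6 for Mertk, without overlap in either library. Lrp1 went the other way, at 67.8 and 53.6 CPM in the former and 154 and 123 in the latter. In the Rgs5-led cells Gas6 was 2.29-fold higher in 377P (1.61 to 3.28), at 74.5 and 32.6 CPM. This cluster was picked out of its class, and the share of all genes past the fold was not computed in it.

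Among Schwann cells, a cluster with Cadm2 and Scn7a among its leading genes stood at 110 CPM (77.0 to 152) and 239 (188 to 300) for Axl, a ratio of 2.18 (1.44 to 3.33). Pros1 stood at 321 and 383 CPM there. For this single cluster no share of all genes past the fold was computed. As a class, Schwann cells had 2 of 6 members past the fold, beside 9.94% of all genes. These were Axl at 1.53 (1.06 to 2.23) and Mfge8 at 2.93 (1.86 to 4.81). The Axl call did not hold after thinning, with a log2 ratio of 0.36, nor with cells gated on markers, with 0.43 against 0.61.

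The remaining calls lay mostly in Mfge8, whose level in cells with little of it was 2.92-fold higher in the T or NK cells of RP (2.36 to 3.60). Epithelial cells had 2 of 9 members past the fold beside 14.6% of all genes, Mfge8 at 2.12 (1.99 to 2.26) and Mertk at 1.69 (1.35 to 2.12). The epithelial cells of the libraries came from different clusters, the largest with 2336 cells of 377P and 1 of RP against 8 and 1726. Their Mfge8 levels of 28.0 and 59.4 CPM and Mertk levels of 2.56 and 4.32 CPM lay near the lymphocyte levels. T or NK cells had 2 of 7 (13.4%), Mfge8 and Stab1 at 2.95 and 7.10 CPM. B or plasma cells had 1 of 7 (10.4%) and neutrophils 1 of 5 (12.8%), Mfge8 in both, at 2.28 (1.75 to 2.94) and 2.45 (1.36 to 4.59). The B cells too lay mostly in a cluster of 2972 and 2 cells in 377P and one of 8 and 540 in RP. In all these classes Mfge8 stood between 23.1 and 79.5 CPM, against 456 or more in gland cells, which were the more frequent class in RP. The part of free RNA from gland cells in these values was not tested.

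Gland cells themselves had 1 of 9 members past the fold (13% of all genes), Axl, 1.67-fold higher in 377P (1.19 to 2.29) at 15.7 and 9.44 CPM, around the lymphocyte level. With cells gated on markers its log2 ratio was 0.38 in place of -0.74. Neuronal cells, the Amelx-led cluster described above, had 2 of 6 (36.2% of all genes). These were Mertk at 5.40 and 56.1 CPM with 5 and 53 UMIs, and Lrp1 at 23.7 and 62.5 CPM. At that share of all genes the members' count says little about the members. Over all classes, 16 pairs of member and class were past the fold with RP higher, 7 of them Mfge8, and 2 with 377P higher. Each class had 5 to 9 members tested. The share of all genes past the fold in either direction ran from 8.38% in perivascular to 36.2% in neuronal cells. Class medians of all genes moved by -0.14 at most, in neuronal cells.

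Other genes of the pathway were compared in the monocyte or macrophage class through 8 lists, of which 7 are reported here. Of 17 tested receptors for dying cells outside the members, 2 were past the fold with RP higher and 2 with 377P higher. Cd36, a scavenger receptor that pairs with integrins in uptake, stood 2.14-fold higher in RP (1.90 to 2.41), at 193 and 412 CPM, and Cd300lb 1.64-fold (1.05 to 2.62). Itgb3, the integrin chain that Mfge8 engages, stood 2.76-fold higher in 377P (1.21 to 6.69) and Cd300lf 1.81-fold (1.29 to 2.55). Of 11 other bridging molecules only Edil3, which also links phosphatidylserine to integrins, was past it, 2.0-fold higher in 377P (1.27 to 3.18). The engulfment machinery (15 tested) and the genes of digestion and cholesterol export (19 tested) had 0 past the fold in either direction. Their median log2 ratios were 0.04 and -0.02, beside -0.04 over all genes, 9.36% of which were past the fold in either direction.

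Of 9 tested signals against uptake, Cd24a was 1.64-fold higher in RP (1.35 to 2.0) and Siglecg 2.85-fold higher in 377P (1.06 to 8.43). Of 11 genes for phosphatidylserine exposure and attraction, Panx1, a channel that releases find-me nucleotides, was 3.24-fold higher in 377P (2.01 to 5.32). Of 6 genes for receptor shedding and chaperones, Vkorc1, which recycles the vitamin K that Gas6 and protein S need for their carboxylation, was 1.52-fold higher in RP (1.12 to 2.09). In each list at most 2 genes were past the fold in a direction, and the class mixes unlike sub-clusters.

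In resident macrophages alone the same 7 lists gave 6 calls. The genes past the fold are named here because of their values. Higher in RP were Msr1, a scavenger receptor (1 of 13 tested in its list, 1.65, 1.07 to 2.66), Cd24a (1 of 6, 2.72, 1.52 to 5.28) and Furin, a protease that trims proproteins (1 of 6, 1.97, 1.38 to 2.9). Higher in 377P were Thbs1, a bridge to Cd36 (2.34, 1.31 to 4.17), and Edil3 (2.30, 1.02 to 5.10), 2 of 10 in their list, and Cx3cr1, the receptor for a find-me chemokine (1 of 9, 1.67, 1.12 to 2.46). Engulfment machinery and digestion had 0 of 14 and 0 of 15. The share over all genes in either direction was 10.4%.

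Each of 28 points was a class with at least 50 cells in 1 library, 13 in 377P and 15 in RP. Chondrocytes and osteoblast lineage cells entered from RP alone. Across these points, the genes whose log2(CPM + 10) was most like each member were listed by Pearson's r. Points of a library share its depth and free RNA, so r describes these data only. Pros1 ran with Sorbs3 (0.953), Socs3 (0.947) and Lama4 (0.938), and Mertk with Stk3 (0.874), Sorbs3 (0.870) and Pdgfa (0.849). Lrp1 ran with Dse (0.943), Cd302 (0.886) and Itgb5 (0.839), and Axl with Chrdl1 (0.869), Agtr1a (0.868) and Nnmt (0.867). Stab1 ran with Parvb (0.898), Lyve1 (0.882) and Htr2b (0.870), and Gas6 with Serpinb6a (0.835). Stab2 (Il7, 0.846) and Tyro3 (Ntf5, 0.851) rest on few UMIs, and Mfge8 had no gene above 0.745 (Dnajc3). Among the members themselves, Mertk ran closest to Pros1 and Axl to Lrp1, both with r of 0.844. Mertk and Axl gave 0.280, Mertk and Gas6 0.614, Gas6 and Pros1 0.691 and Stab1 and Stab2 0.60.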

How the data were processed

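The authors deposited raw UMI counts per gene and cell barcode, filtered to cells, as 1 matrix per library; per the file headers they were made with Cell Ranger 7.0.1, and the submitters' processing notes name STAR and the mm10 build. Every barcode held 500 or more UMIs. From these counts, cells under 200 genes or over 20% mitochondrial UMIs were dropped, and doublets called by Scrublet (Scanpy 1.11.5, expected share 12%) were removed: 836 of 377P and 569 of RP. The mitochondrial limit removed 115 and 819 barcodes.

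Both libraries were clustered together on 3000 variable genes without the members (40 principal components, 20 neighbours, Leiden resolution 1 with igraph 0.11.9). Clusters were named from marker lists where the score was at least 1.2 and at least 3 markers were detected. Cells of the myeloid and endothelial classes were clustered again. Sub-clusters that best matched another lineage were set apart, a rule made after the clusters had been seen. Sums, intervals and thinning used Python 3.11.15, NumPy 2.4.6, SciPy 1.17.1 and pandas 2.3.3. The code for the ratio intervals was run on simulated Poisson counts. Such counts follow the assumption of the interval and leave out spread between cells, so they cannot show how well it covers real data. The interval of a ratio is the exact conditional binomial one.

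The members and all gene lists were chosen with earlier results of these data known. All members are named, with up to 3 of the genes most like each (at least 200 UMIs) and the pathway genes with the largest fold in each direction in the monocyte or macrophage class. Gene positions are from GENCODE on GRCm38. Alternatives changed the doublet, mitochondrial and UMI limits, thinning, resolution, joint clustering, gating on markers, scaling, the count minimum and the fold. Leaving out Cd207 cells, at either limit, and keeping the sub-clusters of another lineage were chosen after seeing the data. Some results on other genes are not reported here.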

Additional observations from a re-analysis of the deposited data

Results flagged for a closer look

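Mfge8 moved opposite ways in dendritic cells and in 7 other classes. In dendritic cells its log2 ratio of RP over 377P was -1.12. In the others it was 1.19 in B or plasma cells, 1.08 in epithelial cells, 0.95 in lymphatic endothelial cells, 0.94 in monocytes or macrophages, 1.29 in neutrophils, 1.55 in Schwann cells and 1.54 in T or NK cells. The log2 differences from dendritic cells were 2.305 for B or plasma cells, 2.199 for epithelial cells, 2.065 for lymphatic endothelial cells and 2.052 for monocytes or macrophages. They were 2.409 for neutrophils, 2.669 for Schwann cells and 2.66 for T or NK cells. Axl moved opposite ways in Schwann cells (0.61) and gland cells (-0.74), a log2 difference of 1.351. With 1 library per title none of these differences between classes was tested. Mfge8 in dendritic cells turned when the Cd207 cells were left out, and Axl in gland cells turned with cells gated on markers.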

How the results depend on the processing

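Of 1061 log2 ratios under other settings, 982 stayed within the counting interval, 75 moved beyond it and 4 reversed. Those 4 were Lrp1 in dendritic cells after thinning (-0.067), Axl in gland cells with cells gated on markers (0.38) and Mfge8 in dendritic cells without those carrying at least 3 UMIs of Cd207 (1.30) or at least 2 (0.56), both settings chosen after seeing the data. Of 72 counts, 64 stayed within 1.5 times the main one. The 16 pairs of member and class with RP higher became 10 after thinning and 10 with 2-fold in place of 1.5-fold. The 2 pairs with 377P higher became 5 when each library was clustered on its own, 1 with cells gated on markers, 1 at 2-fold and 1 without the Cd207 dendritic cells at either limit. The 3 members higher in the monocytes or macrophages of RP became 1 at 2-fold.

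Timd4 in monocytes or macrophages ranged from a log2 ratio of 1.96, after thinning with 377P set to the floor of 3 counts, to 4.64. Gas6 in that class ranged from 0.67 to 0.86. Mfge8 there gave 0.46 with cells gated on markers and 1.99 with separate clustering of the libraries. The cause of these moves was not tested, apart from the cells that thinning and the Cd207 setting leave out. The class with the highest level stayed first in 182 of 193 checks. In the other 11, on Tyro3, Pros1, Mfge8, Gas6 and Timd4, it came second. Resident macrophages gave no value with doublets kept, at resolution 2 or after thinning, and dendritic cells none with cells gated on markers. No paired analysis was possible because each title has 1 library. Counting error is the only error that these data give, and Stab2, Tyro3 and Timd4 rest on few UMIs in most classes.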

Other observations

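Osteoclasts, the bone-resorbing cells of the myeloid lineage, numbered 11 in 377P and 40 in RP and were too few to compare. Their Mfge8 stood at 378 CPM (79 UMIs) and 902 CPM (280 UMIs). In 377P 1 cell held 75 of the 79 UMIs, and in RP the highest cell held 112 and the top 5 cells 90.4%. Lrp1 stood at 167 and 245 CPM in these cells.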
